A study of Mus musculus with 6 samples.

Results

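Nuclear receptors for lipids, retinoids and vitamins are transcription factors that are switched by small fat-soluble molecules entering the cell. Retinoid X receptors (RXRs) pair with retinoic acid receptors (RARs), the vitamin D receptor, peroxisome proliferator-activated receptors (PPARs) and liver X receptors (LXRs). The pairs bind repeats of a short DNA half-site, and a bound ligand exchanges corepressors for coactivators. In group 2 innate lymphoid cells (ILC2s), tissue lymphocytes that release type 2 cytokines without an antigen receptor, PPARγ is known for its part in lipid uptake and effector function, and retinoic acid and vitamin D are known as signals that act on innate lymphoid cells.

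The genes described here were chosen by name and matched by Entrez ID, and all 9 were found among the 27179 genes of the table. They are the RXR genes Rxra, Rxrb and Rxrg, the RAR genes Rara and Rarg, the vitamin D receptor gene Vdr, the PPAR genes Pparg and Ppard, and Nr1h2, which encodes LXRβ. RNA sequencing was done on mouse ILC2s sorted through a Chat positive gate, in 3 libraries, or a Chat negative gate, in 3 libraries. Chat is the gene of choline acetyltransferase, by which cells make acetylcholine. Strain, genotype, age, tissue, any stimulus and how Chat was detected are not stated in the sources used here. The labels number the libraries of each gate 1 to 3 without saying what a number stands for, and do not tie the libraries to separate animals. The p-values therefore reflect only the spread between these libraries, which may be technical.

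Libraries held 37154269 to 50361306 counts. Levels are given as CPM, the count of a gene scaled by the size of its library after correction with trimmed mean of M-values (TMM) factors. Chat averaged 187 ± 17.9 CPM in Chat positive cells and 20.2 ± 5.48 CPM in Chat negative cells (SD, n = 3 each). The ILC2 markers fixed for checking the label, among them Gata3, Il1rl1 and Il13, were at a median of at least 1 CPM for 11 of 11 genes. The libraries with number 2, 1 in each gate, stood apart from the other 4. Both number 2 libraries lay above the other 4 for 26.3% of the 12967 genes tested and below them for 23.4%. Results that rest on those libraries are given below with and without them. These are bulk libraries, so fewer cells of a kind and less RNA per cell cannot be told apart.

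The AGGTCA half-site to which these receptors bind, searched on both strands, occurred in 6 of the 18 RefSeq promoter windows of the 9 genes, or 33.3%, and in 16.3% of all 32851 windows of the same length. Each window runs from 250 bases before to 50 bases after a start site in GRCm38.p6, the assembly behind mm10. No window of the 9 genes held the half-site as an exact direct repeat, in the same orientation, spaced by 1 to 5 bases. Over all windows 0.0791% did, a share so low that 0 among 18 windows says little. The 18 windows are not separate observations, since the Rara windows starting at 98937446 and 98937468 overlap. 4 windows with the half-site, in capitals in either orientation, are shown for the RAR gene with the most reads, for the RXR gene with the lowest gate ratio and for 2 start sites of Pparg, whose level differed most between replicate numbers. The counts are per gene and do not tell which start site was used.
Pparg start site A, chr6:115360894-115361193, plus strand: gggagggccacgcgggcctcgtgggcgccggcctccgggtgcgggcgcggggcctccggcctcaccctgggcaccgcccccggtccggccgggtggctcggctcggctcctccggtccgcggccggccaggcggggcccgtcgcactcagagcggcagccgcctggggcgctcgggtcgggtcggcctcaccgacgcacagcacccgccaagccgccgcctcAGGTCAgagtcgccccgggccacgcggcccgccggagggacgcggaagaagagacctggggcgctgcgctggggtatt
Pparg start site B, chr6:115362099-115362398, plus strand: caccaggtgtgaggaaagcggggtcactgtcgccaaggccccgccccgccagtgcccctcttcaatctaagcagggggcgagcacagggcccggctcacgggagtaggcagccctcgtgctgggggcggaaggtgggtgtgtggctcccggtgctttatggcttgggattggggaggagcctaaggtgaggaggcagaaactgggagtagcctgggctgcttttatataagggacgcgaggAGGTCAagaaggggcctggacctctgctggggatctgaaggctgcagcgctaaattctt
Rara, chr11:98964622-98964921, plus strand: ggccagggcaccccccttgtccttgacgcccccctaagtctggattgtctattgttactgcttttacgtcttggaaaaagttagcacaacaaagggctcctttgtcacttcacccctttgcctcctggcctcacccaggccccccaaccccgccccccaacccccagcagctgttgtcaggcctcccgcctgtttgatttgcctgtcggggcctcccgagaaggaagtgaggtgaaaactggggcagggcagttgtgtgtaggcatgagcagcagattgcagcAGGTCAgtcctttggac
Rxra, chr2:27709042-27709341, plus strand: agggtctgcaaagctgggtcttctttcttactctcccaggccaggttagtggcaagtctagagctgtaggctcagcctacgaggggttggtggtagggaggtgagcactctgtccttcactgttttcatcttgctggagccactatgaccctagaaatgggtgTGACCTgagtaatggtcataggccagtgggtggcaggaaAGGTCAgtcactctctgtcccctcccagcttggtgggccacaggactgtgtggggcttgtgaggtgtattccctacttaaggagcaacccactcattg
A match describes the letters of the window and is not evidence of binding.

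No receptor gene passed the test between the gates. In edgeR's quasi-likelihood test, with p-values adjusted by Benjamini-Hochberg over the whole table and called under 5%, 0 of 9 were called, with 0 of 9 at an unadjusted p under 0.05. DESeq2, which called 0.0308% of all genes, and limma-voom, which called 0.00771%, also called 0 of 9 without the replicate number. Over all genes, 0.00771% were called, which is 1 gene of 12967 and is Chat itself, and 2.43% had an unadjusted p under 0.05. The median log2 change of the 9 genes, Chat positive minus Chat negative, was -0.10, with 8 of 9 below 0, beside a median of 0.00 over all genes tested. It was -0.05 without both number 2 libraries, with 7 of 9 below 0, and -0.24 with the replicate number as a block. All 9 passed the filter on low counts.

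**Figure D1:**
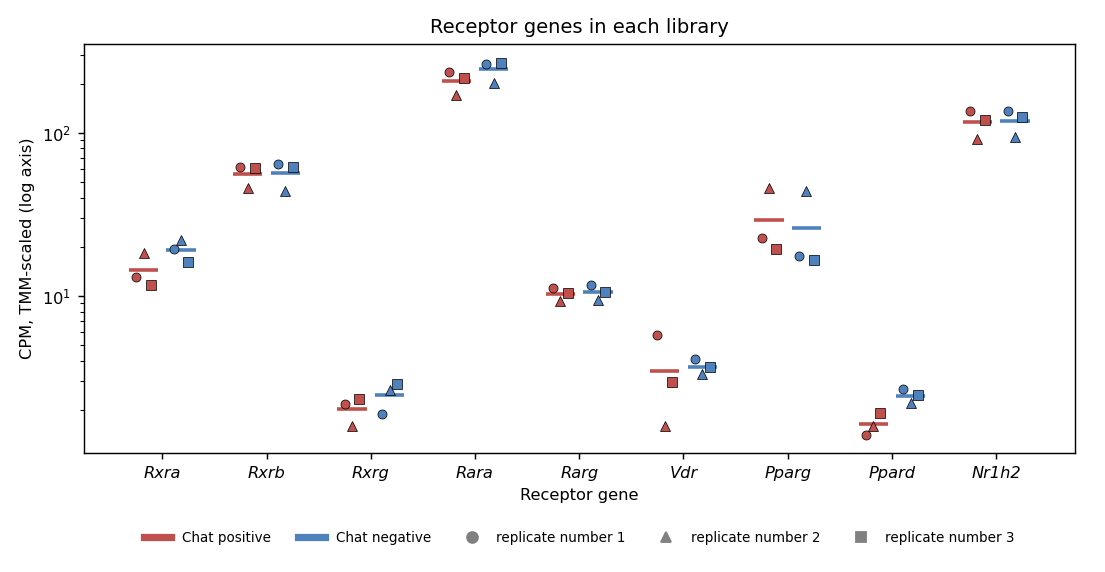
Level of each receptor gene in each library, as TMM-scaled CPM on a log axis, Chat positive left of Chat negative. Marker shapes give the replicate number and bars the mean of 3 libraries. Rara lies between 171 and 269 CPM in the 6 libraries, and both number 2 libraries of Pparg lie above the other 4.

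The receptors differed far more from one another than between the gates. Levels of different genes are compared as RPKM, which here is the TMM-scaled CPM per kilobase of the longest GENCODE transcript. Rara was the most abundant at 61.3 ± 9.81 RPKM in Chat positive and 72.2 ± 11.0 RPKM in Chat negative cells (SD, n = 3 each). Nr1h2 came next at 57.8 ± 11.5 RPKM in Chat positive and 59.1 ± 10.5 RPKM in Chat negative cells, and its libraries overlapped those of Rara. Rxrb followed at 21.4 ± 3.33 and 21.5 ± 4.17 RPKM in the same order of gates, with every library below every library of Nr1h2. Pparg followed at 13.8 ± 6.87 and 12.2 ± 7.29 RPKM, and its highest library, at 21.7 RPKM, lay within the range of Rxrb. Rarg, at 3.48 ± 0.305 and 3.57 ± 0.385 RPKM, overlapped Rxra, at 2.92 ± 0.717 and 3.91 ± 0.615 RPKM. Rxrg, Vdr and Ppard were the lowest, with library values from 0.364 to 1.36 RPKM that overlapped between neighbours in the order.

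Rxra, Rxrb and Rxrg encode the shared partners of the other receptors. Rxrb (Entrez 20182, mm10 chromosome 17, 34031812 to 34038403) stood at 61.5, 46.0 and 60.8 CPM in Chat positive 1, 2 and 3, and at 64.2, 43.9 and 61.3 CPM in Chat negative 1, 2 and 3. In both gates number 2 was the lowest library, and the gates overlapped throughout. Its log2 change was -0.01 with a 95% interval of -0.45 to 0.43.

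Rxra (Entrez 20181, chromosome 2, 27676445 to 27763319) stood at 13.0, 18.3 and 11.6 CPM in Chat positive 1, 2 and 3, and at 19.4, 22.1 and 16.04 CPM in Chat negative 1, 2 and 3. The Chat positive library was the lower for 3 of 3 numbers, but the gates overlapped, because Chat positive 2 lay above Chat negative 3. Its log2 change was -0.42 (SE 0.22, 95% interval -0.94 to 0.10), with an edgeR adjusted p of 1.00. Without both number 2 libraries the log2 change was -0.53 (edgeR adjusted p = 0.516).

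Rxrg (Entrez 20183, chromosome 1, 167598362 to 167639623), best known in muscle and brain, had 80 to 124 counts per library. It stood at 2.16, 1.59 and 2.34 CPM in Chat positive 1, 2 and 3, and at 1.89, 2.65 and 2.87 CPM in Chat negative 1, 2 and 3. The gates overlapped, with a log2 change of -0.29 (95% interval -0.998 to 0.43). The change was -0.0844 without both number 2 libraries and -0.14 without Chat positive 2 alone. Per kilobase, Rxrb made up 84.3% ± 4.09 of RXR transcripts in Chat positive and 80.4% ± 5.22 in Chat negative cells, and Rxra 11.9% ± 4.41 and 15.1% ± 4.37 in the same order of gates (SD, n = 3 each). Rxra took its highest share of RXR transcripts in number 2 of each gate, at 17.0% in Chat positive 2 and 20.01% in Chat negative 2. The summed RXR level was 25.2 ± 2.82 RPKM in Chat positive and 26.6 ± 3.61 RPKM in Chat negative cells.

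**Figure D2:**
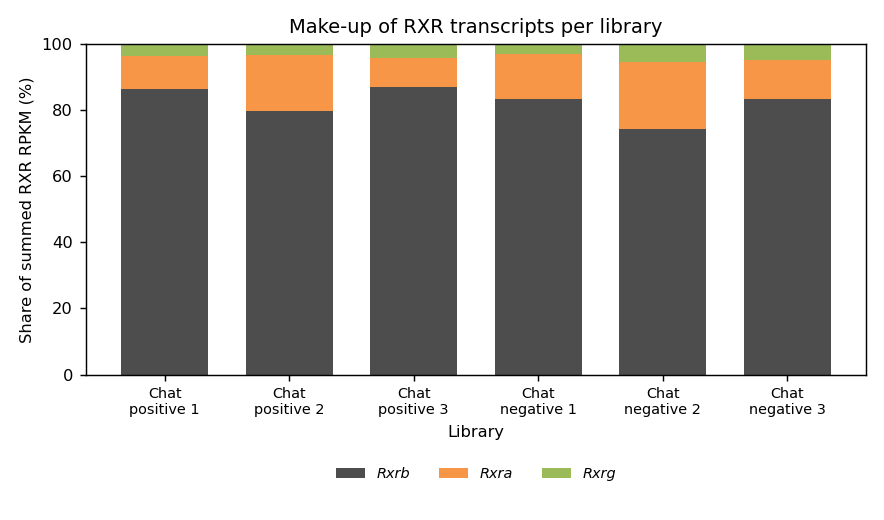
Share of the summed RXR RPKM, in percent, that each of the 3 RXR genes takes in each library, Chat positive libraries left. Rxrb takes 74.4% to 87.0% in the 6 libraries, and the Rxra share is highest in number 2 of each gate.

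Rara and Rarg encode receptors for all-trans retinoic acid, the active form of vitamin A. Rara (Entrez 19401, chromosome 11, 98927800 to 98974942) stood at 236, 171 and 215 CPM in Chat positive 1, 2 and 3, and at 263, 201 and 269 CPM in Chat negative 1, 2 and 3. The Chat positive library was the lower for 3 of 3 numbers, while the gates overlapped. Its log2 change was -0.24 (SE 0.17, 95% interval -0.63 to 0.15), with an edgeR adjusted p of 1.00. Leaving out 1 library moved the change between -0.36 without Chat negative 2 and -0.12 without Chat positive 2.

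Once the replicate number entered as a block, the log2 change of Rara was also -0.24, with an SE of 0.06 and an edgeR adjusted p of 0.109. DESeq2 with the block called Rara lower in Chat positive cells (log2 change -0.25, adjusted p = 0.0129) and was the setting that called a receptor gene, 1 of 9. That fit called 3.56% of all genes in either direction. Over the alternatives the adjusted p of Rara ranged from 0.0129 to 1.00. Without both number 2 libraries its log2 change was -0.24 (edgeR adjusted p = 0.544).

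Rarg (Entrez 19411, chromosome 15, 102234938 to 102257522) stood at 11.1, 9.32 and 10.4 CPM in Chat positive 1, 2 and 3, and at 11.6, 9.36 and 10.6 CPM in Chat negative 1, 2 and 3. The libraries lay close together in both gates, and the log2 change was -0.03 (95% interval -0.43 to 0.36). Per kilobase, Rara made up 94.6% ± 0.403 of the transcripts of these 2 RAR genes in Chat positive and 95.3% ± 0.374 in Chat negative cells. The third RAR gene, Rarb, had 1 to 13 counts in a library and was not tested.

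Vdr (Entrez 22337, chromosome 15, 97854427 to 97908296) encodes the receptor for active vitamin D. It stood at 5.73, 1.59 and 2.98 CPM in Chat positive 1, 2 and 3, and at 4.09, 3.32 and 3.64 CPM in Chat negative 1, 2 and 3. The Chat positive libraries held both the highest and the lowest value, and the Chat negative libraries lay between them. Its log2 change was -0.10, with a 95% interval of -1.17 to 0.96. It was 0.24 without Chat positive 2 and 0.16 without both number 2 libraries, so 1 library set its sign.

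Ppard and Pparg encode receptors for fatty acids and their derivatives. Ppard (Entrez 19015, chromosome 17, 28232754 to 28301469), which has fatty acid oxidation genes among its known targets, had 52 to 113 counts per library. It stood at 1.41, 1.59 and 1.91 CPM in Chat positive 1, 2 and 3, and at 2.67, 2.19 and 2.45 CPM in Chat negative 1, 2 and 3. The gates did not overlap for Ppard, and this was so for 1 of the 9 receptor genes. Over all genes, 3.61% had every Chat positive library below every Chat negative one and 4.53% lay the other way. The log2 change of Ppard was -0.57 (SE 0.27, 95% interval -1.22 to 0.07), with an unadjusted p of 0.0740 and an edgeR adjusted p of 1.00. It lay between -0.72 and -0.41 over the alternatives, with adjusted p from 0.348 to 1.00.

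Pparg (Entrez 19016, chromosome 6, 115360879 to 115490404), the PPAR gene with the more reads, stood at 22.6, 46.1 and 19.3 CPM in Chat positive 1, 2 and 3, and at 17.5, 43.9 and 16.6 CPM in Chat negative 1, 2 and 3. The number 2 library was the highest in each gate, and within a number the Chat positive library was the higher for 3 of 3 numbers. The log2 change between the gates was 0.18 (SE 0.48, 95% interval -0.96 to 1.31), and 0.22 (SE 0.10, edgeR adjusted p = 0.319) with the replicate number as a block. Without both number 2 libraries it was 0.29 (edgeR adjusted p = 0.610). Leaving out single libraries moved it between -0.31 and 0.79, with the lowest value without Chat positive 2 and the highest without Chat negative 2. An antisense RNA, Gm44079, is annotated across part of the span of Pparg. With no stated strand setting, reads from any exon stretch that both share cannot be told apart. Whether their exons overlap was not tested.

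Nr1h2 (Entrez 22260, chromosome 7, 44549616 to 44553968) encodes LXRβ, the widely expressed receptor for oxysterols. It stood at 137, 91.1 and 119 CPM in Chat positive 1, 2 and 3, and at 135, 94.5 and 125 CPM in Chat negative 1, 2 and 3. The gates overlapped and number 2 was the lowest library in each, with a log2 change of -0.03 (95% interval -0.49 to 0.42). Its relative Nr1h3, which encodes LXRα, had 0 to 18 counts per library. Ppara, with no more than 2 counts in any library, was not tested.

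**Figure D3:**
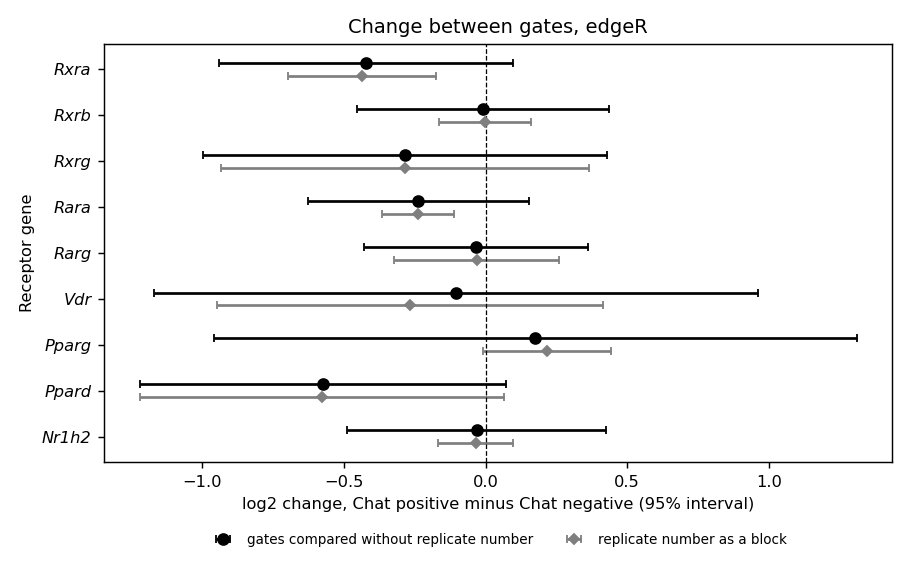
Log2 change, Chat positive minus Chat negative, with its 95% interval for each receptor gene in edgeR, without the replicate number (circles) and with it as a block (diamonds). With the block the interval of Rara and that of Rxra lie below 0, and neither gene passed after adjustment over all genes (adjusted p = 0.109 and 0.131).

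Between the replicate numbers, the levels of several receptors differed beyond the spread. The number term of the blocked edgeR fit, an F-test added after the data were seen, was called at an adjusted p under 5% for 5 of the 9 receptor genes, against 32.5% of all genes tested. It tests for any difference among the 3 numbers, so its p-values do not test the ratios of number 2 to the others given beside them. Pparg averaged 2.37 times as many CPM in the number 2 libraries as in the other 4 (number term, edgeR adjusted p = 8.71e-05). Nr1h2 averaged 0.720 times as many (adjusted p = 0.00113), Rxrb 0.726 times (0.00494), Rara 0.758 times (0.00274) and Rxra 1.34 times (0.0338), each by the same edgeR term. For Pparg both number 2 libraries lay above the other 4, which was 1 of the 9 receptor genes. For Nr1h2, Rxrb, Rara and Rarg, 4 of the 9, both lay below them. Over all genes tested, 26.3% lay above in this way and 23.4% below. The term was not called for Vdr, Rarg, Rxrg and Ppard (adjusted p = 0.119, 0.376, 0.682 and 0.877 in edgeR).

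On a log2 scale Pparg was 1.25 higher in number 2, beside an absolute difference of 0.31 for the median gene and of 1.03 and 1.34 at the 90th and 95th percentiles of all genes tested. Summed markers of 7 of 9 cell types were lower in number 2 than in numbers 1 and 3 of both gates, the exceptions being dendritic cells and adipocytes with stroma. The ILC2 markers were among the 7, at 20200 CPM in Chat positive 2 and 25300 and 27100 CPM in Chat positive 1 and 3, and at 18500 CPM in Chat negative 2 and 18900 and 21700 CPM in Chat negative 1 and 3. The ILC2 genes did not move as 1 group. Both number 2 libraries lay below the other 4 for 4 of the 11 and above them for 1, Il2ra. Over all genes tested these shares were 23.4% and 26.3%. Il5 alone stood at 7591 CPM in Chat positive 2 and at 12200 and 13760 CPM in Chat positive 1 and 3. Il2ra stood at 5753 CPM in Chat positive 2 and at 4075 and 4134 CPM in Chat positive 1 and 3. The number term was called for 8 of 11 ILC2 genes, beside the 32.5% of all genes. The mast cell and basophil markers summed to 25.0 CPM in Chat positive 2 and 124 and 147 CPM in Chat positive 1 and 3, and to 30.8 CPM in Chat negative 2 and 134 and 203 CPM in Chat negative 1 and 3. Nearly all of this was Mcpt8, while Cpa3, Ms4a2 and Tpsb2 were at 0 in every library. The macrophage and monocyte markers, where 2 of 10 genes reached a median of 1 CPM, summed to 8.33 CPM in Chat positive 2 and 23.4 and 20.2 CPM in Chat positive 1 and 3, and to 8.07 CPM in Chat negative 2 and 23.8 and 22.9 CPM in Chat negative 1 and 3. The adipocyte marker Adipoq and the macrophage marker Marco were at 0 in every library. They were the 1 such gene of 8 adipocyte and stroma markers and the 1 of 10 macrophage and monocyte markers. Cd68 of the macrophage list stood at 15.7 ± 7.75 CPM in Chat positive and 15.8 ± 7.60 CPM in Chat negative cells. Col1a1 of the stroma list stood at 1.30 ± 0.259 and 0.840 ± 0.279 CPM. The part of other cells in the receptor levels was not tested.

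**Figure D4:**
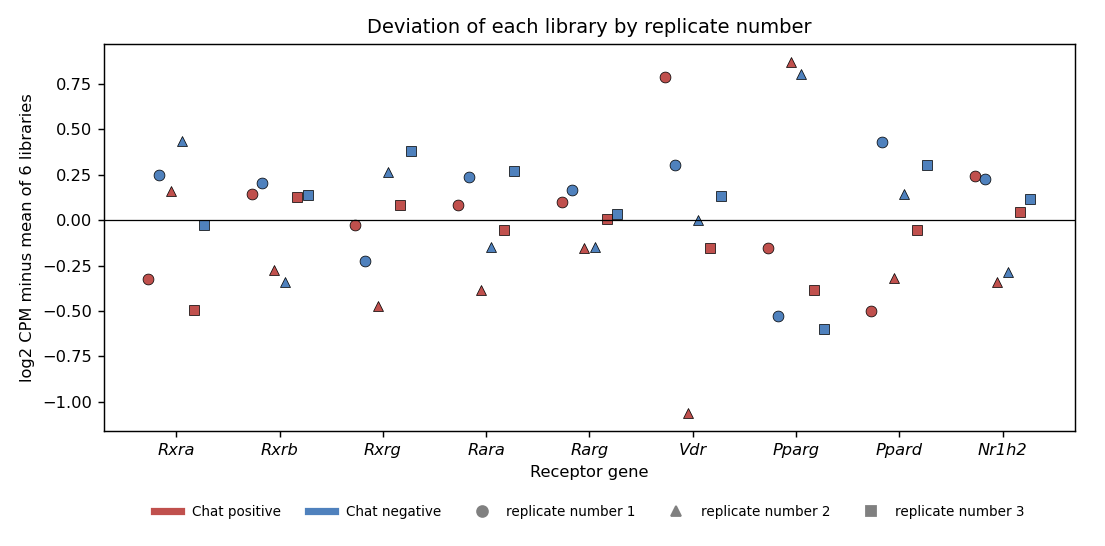
Log2 CPM of each receptor gene in each library minus its mean over the 6 libraries, with marker shapes for the replicate number and colours for the gate. The number 2 libraries of both gates lie highest for Pparg and lowest for Rxrb and Nr1h2.

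The genes whose profile over the 6 libraries was most like that of Pparg, among 8347 genes with a mean of at least 10 CPM, were Umps, Lockd and Lsm3, each with a Pearson correlation of 0.998 in log2 CPM. For Rara they were Lpin1, Laptm5 and 0610012G03Rik, with correlations of 0.998, 0.996 and 0.995. In both gates the genes named for Pparg were highest and those named for Rara lowest in number 2. Those named for Rara were also lower in the Chat positive library for 3 of 3 numbers, as Rara was. These genes were picked by their correlation with the receptor gene over the same libraries. Their shared order of libraries therefore follows from the selection and is no separate observation. A correlation over 0.9 was reached by 1331 genes with Pparg and by 374 with Rara.

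Genes around the receptors were counted over 7 lists of 141 genes, of which 74 were tested. None passed between the gates in edgeR, with 6 at an unadjusted p under 0.05, beside 2.43% of all genes. The number term was called for 21 of the 74, a share below the 32.5% of all genes.

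Of 40 other nuclear receptor genes, 17 were tested, with 8 above and 9 below 0 and a median log2 change of -0.04. The most abundant were Nr3c1, the glucocorticoid receptor gene, at 807 ± 144 CPM in Chat positive and 846 ± 181 CPM in Chat negative cells, and Rora, a receptor gene needed for ILC2 development, at 123 ± 14.9 and 133 ± 6.14 CPM in the same order of gates. Nr2c2, an orphan receptor gene, had the smallest p at 23.5 ± 8.79 and 33.9 ± 11.6 CPM, followed by Nr4a2 at 0.703 ± 0.442 and 0.357 ± 0.197 CPM. The immediate early receptor gene Nr4a1 stood at 42.4 ± 11.6 CPM in Chat positive and 35.3 ± 1.52 CPM in Chat negative cells, and Thrb, a thyroid hormone receptor gene, at 0.117 ± 0.159 and 0.248 ± 0.0325 CPM. The receptor genes Esr2, Nr1h4, Nr1h5, Nr2e3, Nr2f1, Nr2f2 and Pgr were at 0 in every library. Counting error alone leaves room for 3 counts where 0 were seen, which is 0.0811 CPM in the smallest library.

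Coregulators, the proteins that ligand-bound or empty receptors recruit to chromatin, had 16 tested genes, of which 14 lay below 0, and a median log2 change of -0.28. Without both number 2 libraries, 14 of 16 were again below 0, with a median of -0.35. Of the 16, 0 passed in edgeR and 4 had an unadjusted p under 0.05, beside 2.43% of all genes. Over all genes tested, 6373 of 12967 lay below 0. The gates did not overlap for the histone acetyltransferase genes Ep300, at 89.2 ± 12.6 CPM in Chat positive and 113 ± 5.59 CPM in Chat negative cells, and Crebbp, at 19.1 ± 2.82 and 25.6 ± 4.11 CPM. The coactivator gene Ncoa6 stood at 33.3 ± 0.409 CPM in Chat positive and 41.0 ± 4.36 CPM in Chat negative cells, also without overlap. The log2 changes of Ep300, Crebbp and Ncoa6 were -0.34, -0.42 and -0.30. In all, 5 of 16 tested coregulator genes lay wholly below in Chat positive cells, beside the 3.61% of all genes. The most abundant, the coactivator gene Ncoa3, stood at 398 ± 9.44 and 416 ± 13.2 CPM, and the corepressor gene Ncor1 at 173 ± 50.2 and 206 ± 20.1 CPM, in the same order of gates. Among the coregulator genes named here, blocked DESeq2 called Ep300, Nrip1 and Ncoa2 lower (adjusted p = 0.0258, 0.0133 and 0.0270). Nrip1 and Ncoa2 are named here because that fit called them. Blocked edgeR called no coregulator gene. The PPAR coactivator gene Ppargc1a had at most 1 count in any library.

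Retinoid uptake and metabolism was thinly expressed, with 6 of 21 genes tested, 4 above and 2 below 0. Rdh11, a retinal reductase gene, stood at 38.8 ± 3.22 CPM in Chat positive and 37.5 ± 4.97 CPM in Chat negative cells. Dhrs4, of the same enzyme superfamily, stood at 14.8, 27.0 and 14.8 CPM in Chat positive 1, 2 and 3, and at 13.6, 23.9 and 13.6 CPM in Chat negative 1, 2 and 3. Like Pparg it was highest in number 2 of each gate, and its number term was called (edgeR adjusted p = 0.00115). Adh1 stood at 1.53 ± 0.628 and 1.14 ± 0.382 CPM, Dhrs3 at 0.234 ± 0.270 and 0.379 ± 0.291 CPM, and Cyp26b1, which degrades retinoic acid, at 1.11 ± 0.248 and 0.956 ± 0.249 CPM, each with Chat positive first. The retinal dehydrogenase gene Aldh1a1 and Adh7, Bco1, Crabp2, Cyp26a1, Lrat and Stra6l were at 0 in every library.

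Among 11 genes of the retinoic acid response and gut homing, 7 were tested, with a median log2 change of 0.02. Itgb7, an integrin chain of gut homing, stood at 946 ± 165 CPM in Chat positive and 1082 ± 201 CPM in Chat negative cells, while its partner Itga4 stood at 4.601 ± 1.23 and 3.54 ± 1.36 CPM. Hic1, a retinoic acid-responsive repressor gene, stood at 11.7 ± 3.45 and 11.5 ± 4.33 CPM, and was lowest in number 2 of each gate (number term, edgeR adjusted p = 0.00336). Tgm2, a transglutaminase gene, stood at 0.424 ± 0.276 and 0.0945 ± 0.164 CPM. Rarres2 and Stra8 were at 0 in every library.

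Of 11 genes of vitamin D metabolism and response, 3 were tested. Trpv6, a calcium channel gene induced by vitamin D in gut, stood at 1.34 ± 0.602 CPM in Chat positive and 2.38 ± 1.24 CPM in Chat negative cells, with a log2 change of -0.83 (SE 0.53). Cyp2r1, which makes the circulating form of vitamin D, stood at 1.48 ± 0.212 and 1.39 ± 0.106 CPM, and Cd14 at 0.219 ± 0.260 and 0.282 ± 0.272 CPM. Cyp24a1, the vitamin D-degrading enzyme gene that is the usual readout of the receptor, was at 0 in every library, as were Cyp27a1 and Gc.

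PPAR targets and fatty acid handling genes had 18 tested genes, 7 above and 11 below 0, and a median log2 change of -0.01. The median of all genes was 0.0044. Without scaling factors 10 of the 18 lay above 0, with a median of 0.0041 beside 0.0218 for all genes. Plin2, which coats lipid droplets, stood at 153, 128 and 165 CPM in Chat positive 1, 2 and 3, and at 116, 97.5 and 129 CPM in Chat negative 1, 2 and 3. The Chat positive library was the higher for 3 of 3 numbers, with the gates overlapping by Chat positive 2 and Chat negative 3. Its log2 change was 0.38 (SE 0.15, edgeR adjusted p = 1.00). With the replicate number as a block it was higher in Chat positive cells (log2 change 0.38, edgeR adjusted p = 0.0420), the 1 pathway gene called in that fit, which called 0.339% of all genes. Blocked DESeq2 also called it (0.37, adjusted p = 2.72e-05), while blocked limma-voom and blocked edgeR without robust dispersions called no pathway gene. The blocked edgeR fit that called Plin2 did not call Chat itself, at a log2 change of 3.24 (adjusted p = 0.0961), which limits what its calls show.

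Scd1, the stearoyl-CoA desaturase gene, stood at 35.3, 35.4 and 31.0 CPM in Chat positive 1, 2 and 3. In Chat negative 1, 2 and 3 it stood at 43.2, 49.7 and 40.2 CPM. The gates did not overlap, with a log2 change of -0.39 (SE 0.13, edgeR adjusted p = 1.00). Of the 18 genes, 2 lay wholly below in Chat positive cells and 2 wholly above, beside 3.61% and 4.53% of all genes. Ucp2, a mitochondrial carrier gene and the most abundant of the list, stood at 2400 ± 233 CPM in Chat positive and 2795 ± 207 CPM in Chat negative cells, and Cpt1a, which admits fatty acids to mitochondria, at 134 ± 19.2 and 157 ± 6.05 CPM. Blocked DESeq2 called Scd1 and Ucp2 lower (adjusted p = 0.00852 and 0.00421), while blocked edgeR did not. The number term was called for 6 of the 18, beside 32.5% of all genes. Both number 2 libraries lay above the other 4 for 5 of the 18 and below them for 2. Over all genes tested these shares were 26.3% and 23.4%. Chosen here after their values were seen, Fabp5, a fatty acid-binding protein gene, averaged 2.05 times and Slc27a1, a fatty acid transporter gene, 0.42 times as many CPM in the number 2 libraries as in the other 4 (number term, edgeR adjusted p = 0.0114 and 2.10e-04). The adipocyte targets Fabp4, Adipoq, Cidec, Plin4 and Lpl, and Pdk4, were at 0 in every library.

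LXR targets and oxysterol enzymes had 10 tested genes, 7 of which lay below 0, and a median log2 change of -0.18. Abca1, a cholesterol efflux pump gene, stood at 23.5, 28.4 and 33.9 CPM in Chat positive 1, 2 and 3, and at 33.3, 31.9 and 47.3 CPM in Chat negative 1, 2 and 3. It was lower in the Chat positive library for 3 of 3 numbers while the gates overlapped, with a log2 change of -0.39 (SE 0.21). Abcg1, its partner in efflux, stood at 50.3 ± 6.79 CPM in Chat positive and 57.3 ± 1.97 CPM in Chat negative cells, and Srebf1, the lipogenic regulator gene, at 281 ± 28.1 and 307 ± 13.9 CPM. Lpcat3, which remodels phospholipids, stood at 328 ± 53.7 and 371 ± 57.4 CPM. Blocked DESeq2 called Abca1 and Lpcat3 lower (adjusted p = 0.0328 and 0.0357), and blocked edgeR called neither (0.126 and 0.142). The number term was called for 5 of the 10, beside 32.5% of all genes. Both number 2 libraries lay above the other 4 for 1 of the 10 and below them for 3. Over all genes tested these shares were 26.3% and 23.4%. Mylip and Smpdl3a were chosen here after their values were seen. They averaged 0.372 and 0.549 times as many CPM in the number 2 libraries as in the other 4. Their number term was called (edgeR adjusted p = 4.08e-04 and 1.65e-04). Abcg5, Abcg8, Apoc1, Cyp27a1, Cyp7b1 and Cyp8b1 were at 0 in every library.

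**Figure D5:**
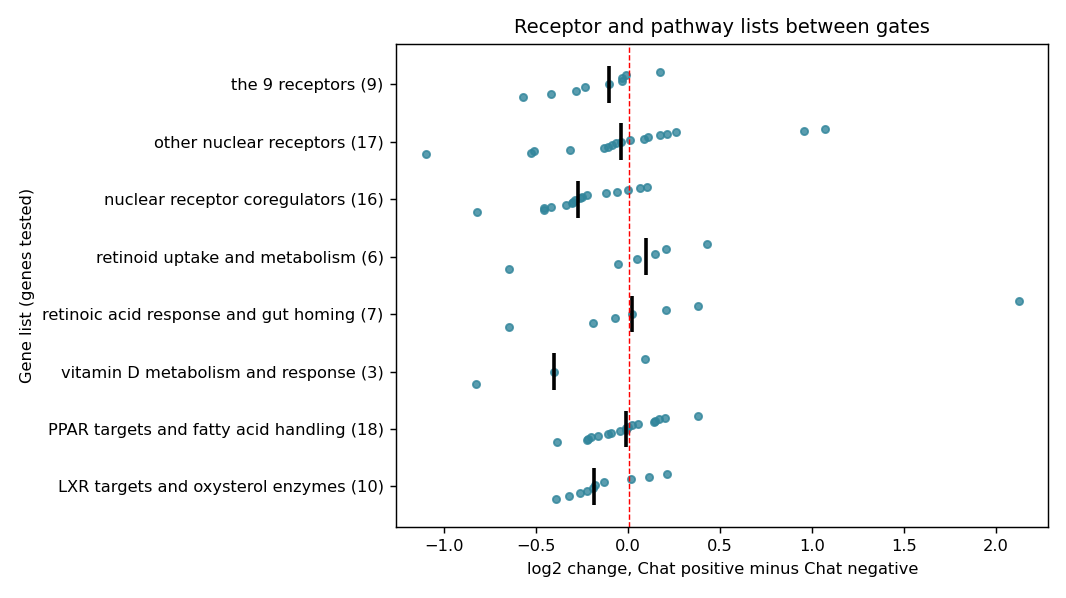
Log2 change, Chat positive minus Chat negative, of each tested gene (points) of the 9 receptors and the 7 pathway lists, with the number of genes tested beside each name. Black bars are list medians and the dashed line is the median of all genes, 0.00; the coregulator median lies at -0.28.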

How the data were processed

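Per the labels' protocols, libraries came from sorted cells by a SMARTer ultra-low-input method. CASAVA 1.8.2, STAR 2.3.0 and the mm10 build are listed in the submitters' processing notes. Neither the counting program nor its strand setting is given in the sources used here. The deposited values are raw counts per Entrez gene, not normalised by the authors, since they are whole numbers and the columns sum to different totals. Of the IDs, 25275 matched RefSeq of GRCm38.p6, which gave symbols, coordinates and promoter sequences. Transcript lengths are those of the longest GENCODE vM21 transcript.

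edgeR's filterByExpr kept 12967 genes. CPM are relative to TMM-scaled library sizes. The gates were compared in edgeR by a two-sided quasi-likelihood F-test on robust dispersions, adjusted by Benjamini-Hochberg over all genes at 5%. The SE is that implied by the F statistic. R 4.3.3, edgeR 4.0.16, limma 3.58.1 and DESeq2 1.42.0 were used, and the fits were tested on simulated data. All pairs of libraries within a gate differed by more than sampling noise, with a chi-square of 32.0 or more per degree of freedom.

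Same-numbered libraries of the gates deviated together, correlating across genes at 0.42 for number 1, 0.81 for number 2 and 0.55 for number 3, so the number was used as a block in alternatives. The pairing comes from these correlations and from no label, and Chat negative 1 correlated better with Chat positive 3 (0.47) than with its own number. Chat positive 1 and Chat negative 3 correlated at 0.32. Deviations were taken from the mean of each gate, so number 2 standing apart in both gates raises all correlations between numbers 1 and 3. The values for numbers 1 and 3 therefore do not establish a pairing. The receptor genes, gene lists and tests were chosen with earlier results of these data known. From each list the text names the 4 tested genes with the smallest p, the 2 most abundant and those at 0. Rarb, Nr1h3, Ppara and Ppargc1a are named outside this rule, and Nrip1 and Ncoa2 because blocked DESeq2 called them. Others are said to be chosen after their values were seen. Some genes that this rule would name are not reported here. Profile likeness was computed for Pparg and for the receptor gene with the most CPM.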

Additional observations from a re-analysis of the deposited data

How the results depend on the processing

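Between the gates, 0 receptor genes and 0 pathway genes were called, beside 1 gene in all, with RLE, upper-quartile or no scaling, with no filter or at least 5 CPM in 3 libraries, without robust dispersions, in limma-voom and at a 10% threshold. DESeq2 without the block called 4 genes in all. With the replicate block, edgeR called 44 genes and 1 pathway gene, and DESeq2 called 461 genes, 9 pathway genes and 1 receptor gene; blocked limma-voom and the blocked fit without robust dispersions called 1 gene each. Leaving out 1 library gave 0 to 1 genes in all. The single call was lost without Chat positive 1 or 3 or Chat negative 1 or 3. Without both libraries of number 1, 2 or 3, a choice made after the data were seen, 0, 2 and 0 genes were called. The cause of these shifts was not tested.

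Of 186 recomputed log2 changes of the receptor genes, 15 changed sign and none of those 15 was called. Leaving out 1 library moved Rxrb between -0.16 and 0.11, Rarg between -0.11 and 0.0431, Vdr between -0.69 and 0.24, Pparg between -0.31 and 0.79, Nr1h2 between -0.17 and 0.11, Rxra between -0.64 and -0.31, Rxrg between -0.45 and -0.14 and Rara between -0.36 and -0.12. Rxrb was at 0.0066 without scaling factors and 0.0146 without both number 1 libraries, and Vdr at 0.16 without both number 2 libraries. Rxra, Rxrg, Rara and Ppard stayed below 0 under every alternative run. In the comparison without the block, the receptors' 95% intervals between gates span at least 0.78 on the log2 scale with 3 libraries a gate, which limits the changes that could be detected there. With the block they are narrower, as for Rara (-0.365 to -0.11).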
